A study of Mus musculus with 16 samples.

Results

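The 33 genes described here encode proteins of ribosome biogenesis, the making of ribosomes in the nucleolus. They were chosen by symbol from the 32286 genes listed in the single-cell RNA-seq matrices of mouse bone marrow and 2208L tumors, and all 33 were found. The marrow came from wild-type (WT) BALB/c mice without a tumor, the controls, and from mice of the same kind bearing a 2208L tumor that were given vehicle or IACS-70654, an oral inhibitor of the bromodomains of the acetyltransferases CBP and P300. 2208L is a Trp53-null mammary tumor that is transplanted in pieces into the mammary fat pad, so that all tumor-bearing groups carry the same tumor line. The marrow was sequenced as a pair of sorts, CD45+Ter119- cells and lineage-negative c-Kit+ stem and progenitor cells, each with 2 libraries for WT, vehicle and IACS-70654. The tumors themselves gave 1 library each for vehicle, IACS-70654, anti-PD-1 and the combination of both agents. Each library pooled cells of 3 mice. Neither the labels nor the study say whether the 2 libraries of a group came from separate pools. A difference between them holds technical spread and may or may not hold the spread of pools. The study describes 7 days of treatment for the tumors given vehicle or IACS-70654 and 6 days for both marrow sorts, while the WT mice were untreated. For the anti-PD-1 and combination tumors its text gives no length of treatment in the single-cell experiment.

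Ribosome biogenesis starts when RNA polymerase I transcribes the precursor of the ribosomal RNAs in the nucleolus. Small nucleolar ribonucleoproteins (snoRNPs) then modify the precursor at chosen bases, and large sets of assembly factors cut, fold and package it into the small and the large ribosomal subunit. The process is costly, runs fastest in dividing and growing cells, and is turned down as blood cells mature. The transcription factor MYC is known to activate many of its genes, through the motif called the E-box. Of the 33 genes, 3 encode subunits of RNA polymerase I or of its shared core (Polr1a, Polr1b, Polr1c) and 5 belong to the snoRNPs or their assembly (Fbl, Nop56 and Nop58 of the methylating box C/D class, Dkc1 of the pseudouridylating box H/ACA class, and the chaperone Nolc1). Ncl (nucleolin) and Npm1 (nucleophosmin) are abundant nucleolar proteins that bind RNA and histones. Another 9 act on the small subunit (Wdr43, Utp4, Heatr1, Utp20, Nop14, Noc4l, Rrp9, Nob1, Rrp12) and 14 on the large one (Pes1, Bop1, Wdr12, Nop2, Nop16, Nip7, Gnl3, Ppan, Mrto4, Rrs1, Rrp1b, Noc2l, Noc3l, Ddx21). A further 124 genes of the same pathway, listed beside the 33, are reported as counts.

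The E-box CACGTG, a palindrome that reads the same on both strands, was searched in RefSeq promoters of the build GRCm38.p6, from 250 bases before to 50 bases after each annotated start. Of the 28 members with a promoter entry, 5 held it (Nop2, Pes1, Utp20, Utp4 and Wdr43), a share of 17.9%, beside 21.4% of the 103 other pathway genes with an entry and 8.09% of all 27025 genes. Bop1, Fbl, Npm1, Rrp12 and Rrs1 had no entry. The promoters of Wdr43 and Utp20 are shown because Wdr43 fell in megakaryocyte-like cells and Utp20 differed in its response between progenitors and neutrophil precursors. Both act in the small-subunit processome, and the capitals mark the motif, which is a description and not a bound site. The other members called in megakaryocyte-like cells that had an entry lacked the motif: Ncl, Nolc1, Dkc1, Nop58, Ppan, Gnl3, Noc2l, Mrto4 and Wdr12. So did Nip7, Heatr1 and Noc3l, which differed in response between MPP-like and preNeu-like cells.
Wdr43, chr17:71615965-71616264, plus strand: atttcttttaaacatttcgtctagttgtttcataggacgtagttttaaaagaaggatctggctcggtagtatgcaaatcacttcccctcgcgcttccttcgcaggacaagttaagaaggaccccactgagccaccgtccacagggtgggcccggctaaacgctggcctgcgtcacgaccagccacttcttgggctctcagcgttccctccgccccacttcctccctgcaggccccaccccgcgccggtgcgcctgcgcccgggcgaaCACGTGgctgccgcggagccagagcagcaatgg
Utp20, chr10:88826765-88827064, minus strand: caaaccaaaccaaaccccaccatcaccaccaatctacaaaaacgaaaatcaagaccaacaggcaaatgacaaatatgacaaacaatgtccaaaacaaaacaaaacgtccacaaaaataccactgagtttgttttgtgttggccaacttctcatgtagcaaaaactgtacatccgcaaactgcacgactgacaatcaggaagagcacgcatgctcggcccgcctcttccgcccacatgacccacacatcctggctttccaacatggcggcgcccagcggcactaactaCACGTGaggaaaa
In both promoters the motif lies in the 50 bases after the annotated start, behind the first 17 of them in Wdr43 and the first 37 in Utp20.

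The 16 matrices held 77636 cell barcodes, and 73176 cells passed the filters on genes and mitochondrial reads, between 1974 and 7517 per library. No barcode was shared between libraries of a sort, and libraries held 15590000 to 68416000 unique molecular identifiers (UMIs, each standing for 1 captured RNA molecule). Cells were clustered within each sort, and clusters were called by the marker list they matched: HSC-like, MPP-like, neutrophil GMP-like, monocyte progenitor-like, erythroid-like, megakaryocyte-like and basophil-or-mast-like in the c-Kit+ sort, and proNeu-like, preNeu-like, nondividing neutrophil-like, monocyte-like, pDC-like, B cell-like, T or NK cell-like and basophil-like in the CD45+ sort. HSC and MPP stand for hematopoietic stem cells and multipotent progenitors, GMP for granulocyte-monocyte progenitors, proNeu and preNeu for the early and the late dividing precursors of neutrophils, and pDC for plasmacytoid dendritic cells. In each class the UMIs were summed per library, and levels are given as TMM-scaled CPM, a gene's UMIs relative to the effective total of its class in that library. A gene was called where edgeR's quasi-likelihood test gave a Benjamini-Hochberg adjusted p under 0.01 over all genes of the class and a log2 change over 0.5 in size, and all adjusted p-values below come from that test.

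The 33 genes together took the largest share of all UMIs in erythroid-like progenitors and the smallest in neutrophils. In WT libraries the share was 0.993% and 0.972% in erythroid-like cells, 0.746% and 0.708% in MPP-like cells, 0.720% and 0.753% in neutrophil GMP-like cells and 0.719% and 0.755% in megakaryocyte-like cells. These 3 classes overlapped and cannot be ordered. HSC-like cells lay below them, at 0.556% and 0.547% in WT. Along the neutrophil lineage the WT share went from the GMP-like level to 0.350% and 0.355% in proNeu-like cells, 0.0579% and 0.0585% in preNeu-like cells and 0.0304% in both libraries of nondividing neutrophil-like cells. The steps from proNeu-like to preNeu-like to nondividing cells were far larger than the distance between libraries. Monocyte-like, pDC-like, B cell-like and T or NK cell-like cells shared a band between 0.238% and 0.315% in WT. Outside nondividing neutrophil-like cells Npm1 and Ncl supplied most of these UMIs, which in a 3′ method are not scaled to transcript length, Npm1 for example at 4288 and 4231 CPM in WT erythroid-like cells and at 63.5 and 63.9 in WT nondividing neutrophil-like cells.

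**Figure D1:**
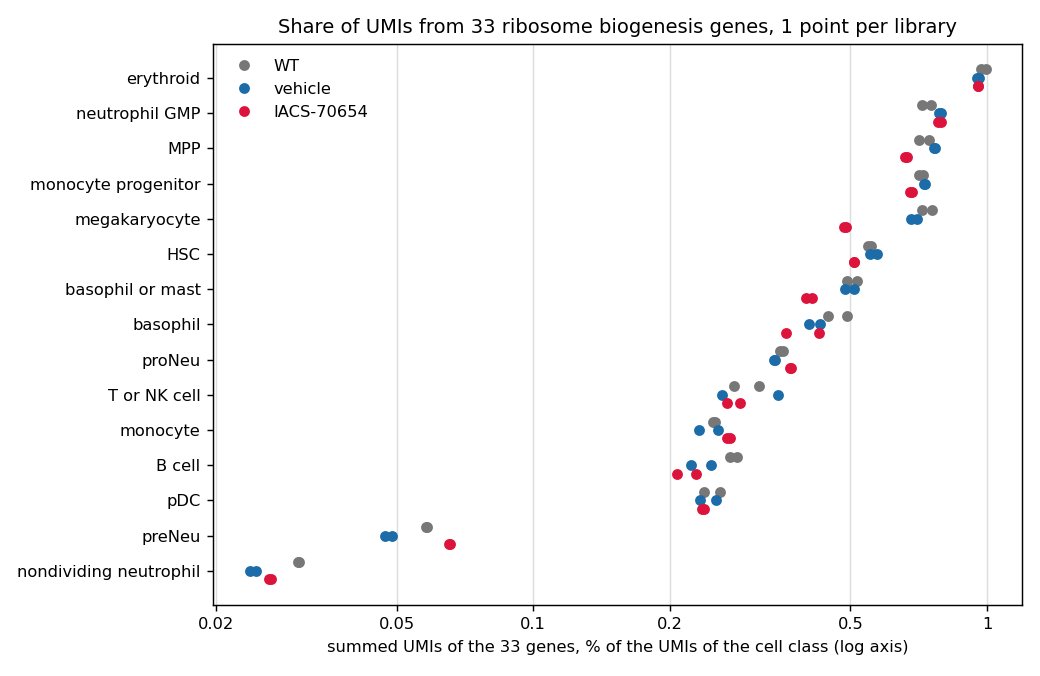
Summed UMIs of the 33 genes as percent of all UMIs of a cell class (log axis), 1 point per library, with WT, vehicle and IACS-70654 in separate colors. Erythroid-like cells sit near 1% and nondividing neutrophil-like cells near 0.03%, and the IACS-70654 points lie apart from vehicle most clearly in megakaryocyte-like, MPP-like, basophil-or-mast-like and preNeu-like cells.

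After IACS-70654 the summed share was lower than vehicle in several stem and progenitor classes. It was higher in preNeu-like, proNeu-like, nondividing neutrophil-like and monocyte-like cells. In MPP-like cells the vehicle libraries stood at 0.765% and 0.766% and the IACS-70654 libraries at 0.660% and 0.665%, and 0.551% and 0.572% against 0.510% and 0.508% in HSC-like cells. In megakaryocyte-like cells it was 0.678% and 0.700% against 0.489% and 0.485%. In preNeu-like cells it was 0.0488% and 0.0471% against 0.0657% and 0.0653%, and in proNeu-like cells 0.342% and 0.339% against 0.367% and 0.371%. Nondividing neutrophil-like cells stood at 0.0245% and 0.0238% with vehicle against 0.0265% and 0.0262%, and monocyte-like cells at 0.232% and 0.256% against 0.267% and 0.272%. In each of these classes the 2 pairs of libraries did not overlap. In proNeu-like cells the difference lay in 1 of 2 clusters, as given with that class, and without the upper limit of 6000 genes per cell the libraries overlapped, at 0.342% and 0.423% for vehicle against 0.382% and 0.398%. Neutrophil GMP-like cells overlapped (0.791% and 0.782% against 0.778% and 0.790%), as did erythroid-like cells (0.950% and 0.959% against 0.955% in both). These shares are on the scale of total UMIs and carry no test.

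In MPP-like cells 31 of the 33 genes had lower estimates after IACS-70654 than with vehicle, with a median log2 change of -0.24 beside 0.01 over all genes, but the changes were mostly smaller than the fold threshold. Only Heatr1, a component of the small-subunit processome that also serves ribosomal RNA transcription, was called lower, while 5.0% of all 11215 genes tested were called. Heatr1 was at 42.3 and 45.5 CPM in the vehicle libraries and at 29.996 and 31.6 CPM after IACS-70654, a log2 change of -0.50 (SE 0.12, adjusted p = 0.000301). The groups did not overlap, and WT lay at 42.4 and 32.7 CPM. Of 14409 genes counted in the class, 26.1% lay wholly below vehicle. DESeq2 called none of the 33, 22 had an unadjusted p under 0.05 beside 30% of all genes, and the single call was lost without vehicle library 2 or without IACS-70654 library 1.

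The next members of MPP-like cells passed the adjusted p but not the fold. Ncl was at 1495 and 1497 CPM with vehicle and at 1166 and 1179 CPM with IACS-70654, with WT at 1470 and 1364 CPM. Its log2 change of -0.35 (SE 0.04, adjusted p = 3.19e-17) was many times the distance between libraries. Dkc1, the pseudouridine synthase, was at 215 and 227 CPM with vehicle and at 174 and 167 CPM with IACS-70654 (log2 change -0.36, adjusted p = 2.15e-07). Nolc1 was at 176 and 158 CPM with vehicle and at 129 and 141 CPM with IACS-70654 (log2 change -0.34, adjusted p = 9.34e-06). The 3 core proteins of the box C/D snoRNP moved less. The methyltransferase Fbl was at 314 and 313 CPM with vehicle and at 271 and 275 CPM with IACS-70654, a log2 change of -0.20. Nop56 was at 245 and 254 CPM with vehicle and at 213 and 210 CPM with IACS-70654, and Nop58 at 301 and 325 CPM and then 261 and 266 CPM. Npm1 differed by only -0.12 on the log2 scale, from 3090 and 3183 CPM to 2832 and 2952 CPM (adjusted p = 0.0082). In all of these the IACS-70654 libraries lay below both vehicle libraries, as did those of 26.1% of 14409 genes in the class.

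Rrs1, which brings the 5S ribonucleoprotein into the large subunit, was at 54.8 and 65.4 CPM with vehicle and at 48.6 and 50.4 CPM with IACS-70654 in MPP-like cells (log2 change -0.24, SE 0.10, adjusted p = 0.0728), so it did not pass the test there. Polr1b, the second-largest subunit of RNA polymerase I, was at 13.7 and 13.5 CPM with vehicle and at 10.8 and 7.80 CPM with IACS-70654 (log2 change -0.49, adjusted p = 0.0662). Among the other members, Nop2, Ppan, Rrp1b, Mrto4 and Wdr12 had log2 changes between -0.43 and -0.35 with adjusted p-values from 1.22e-05 to 0.00699. Polr1c and Noc3l were the only members with a positive estimate, 0.13 and 0.07. Of the 124 other pathway genes 2 were called lower, the U3 processome protein Pwp2 (-0.82) and the RNA acetyltransferase Nat10 (-0.65), and none higher. Of all genes in the class, 2.87% were called lower. Myc itself had a log2 change of -0.43 (SE 0.08) in MPP-like cells, under the fold threshold.

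The name MPP-like rests on the marker scores of its clusters. In WT the 7 MPP markers summed to 1669 and 1764 CPM in MPP-like cells and to 2224 and 2297 in HSC-like cells. The 8 neutrophil GMP markers summed to 5904 and 5560 CPM against 2127 and 1974. Unnamed c-Kit+ cluster 12, led by Dntt, Flt3 and Satb1, scored higher on the MPP list (2.22) than the MPP-like clusters (1.29 and 1.57). The share of MPP-like cells scored in S phase was 34.4% and 41.0% in the vehicle libraries, against 21.5% and 21.1% after IACS-70654. The summed share of the 33 genes was lower after IACS-70654 within each phase taken alone: 0.790% and 0.763% against 0.679% and 0.698% in G1, 0.818% and 0.833% against 0.770% and 0.785% in S, and 0.715% and 0.681% against 0.601% and 0.597% in G2M. In S-phase cells alone the estimates of Nop58 (0.10), Nop56 (0.05), Fbl (0.02) and Heatr1 (0.02) turned positive. The 7 basophil or mast cell markers summed to 302 and 275 CPM in MPP-like cells with IACS-70654 and to 169 and 179 with vehicle, none of them at 0, and the median UMI count per cell was 7218.5 and 7363 against 9215 and 8940. The part of these differences in the lower values was not tested.

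In HSC-like cells no member was called, while 3.8% of all genes were, and DESeq2 called none. At an unadjusted p under 0.05 there were 14 of the 33, beside 23% of all genes, and 26 estimates were negative (median -0.16). Ncl was at 993 and 1078 CPM with vehicle and at 882 and 894 CPM with IACS-70654 (log2 change -0.21, adjusted p = 3.18e-06). Npm1 was at 2152 and 2289 CPM with vehicle and at 2003 and 2020 CPM with IACS-70654 (log2 change -0.13). Wdr12, a partner of Pes1 and Bop1 in the complex that matures the large-subunit RNA, had a log2 change of -0.36 (adjusted p = 0.000699). Fbl, Nop56, Nop58, Dkc1 and Nolc1 had log2 changes between -0.27 and -0.14, and the IACS-70654 libraries of each lay below the vehicle libraries. So did those of 25.5% of 14685 genes in the class. Polr1b (12.1 and 10.5 CPM with vehicle, 12.9 and 12.1 CPM with IACS-70654) and Rrs1 (39.9 and 40.7, then 34.7 and 36.0 CPM) did not pass the test. No pathway gene was called, and Myc had a log2 change of -0.42 and Mycn of -0.15. In the same cells the 7 MPP markers summed to 3102 and 3017 CPM with IACS-70654 against 2349 and 2430 with vehicle, and the 7 basophil or mast cell markers to 247 and 246 CPM against 128 and 143, with no marker of either list at 0. Median UMI counts per cell were 4098.5 and 4057.5 against 4720.5 and 4688, and the part of these shifts was not tested.

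Neutrophil GMP-like cells, the dividing progenitors committed towards neutrophils, had shares of the 33 genes that overlapped between IACS-70654 and vehicle over the class as a whole. No member was called beside 7.13% of all genes, DESeq2 called none, and 12 of 33 had an unadjusted p under 0.05 beside 38.6% of all genes, so the members' share was near that of all genes. The make-up of the class moved: a cluster led by S100a9, with a low share of the 33 genes (0.562% and 0.569% with vehicle), was 24.1% and 25.9% of the class with vehicle and 11.9% and 14.5% with IACS-70654. In the largest cluster the share was lower after IACS-70654, at 0.787% and 0.789% against 0.822% and 0.830%, and in the third it overlapped. Over the whole class the signs were mixed, with 13 estimates above and 20 below zero and a median of -0.03. Rrs1 was the member with the largest estimate: it was at 75.4 and 76.9 CPM with vehicle and at 61.9 and 59.5 CPM with IACS-70654. Its log2 change of -0.32 (SE 0.06, adjusted p = 1.6e-06) was well beyond the spread of the libraries but under the fold threshold. Npm1 (3579 and 3434 CPM, then 3294 and 3318 CPM) and Ncl (1642 and 1625, then 1560 and 1602 CPM) had log2 changes of -0.09 and -0.05. Fbl, Nop56, Nop58 and Dkc1 lay within 0.07 of zero on the log2 scale, Nolc1 at -0.13 and Polr1b at -0.26. The nucleolar protein Lyar was the 1 pathway gene called, and it was lower (-0.51). Myc had a log2 change of -0.12.

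In monocyte progenitor-like and erythroid-like cells no member was called either, beside 6.14% and 5.83% of all genes. DESeq2 called none in either class, and 15 and 13 members had an unadjusted p under 0.05, beside 36% and 32.8% of all genes. In monocyte progenitor-like cells 27 of 33 estimates were negative (median -0.08, against 0.0015 over all genes), and the summed share was 0.684% and 0.676% after IACS-70654 against 0.726% and 0.730%, without overlap. Npm1 was there at 3275 and 3300 CPM with vehicle and at 2923 and 2932 CPM with IACS-70654, a log2 change of -0.17, and Fbl was at 306 and 300 CPM and then 258 and 251 CPM, a log2 change of -0.25. Utp20 had the largest estimate of the class, -0.31. The 7 markers of this monocyte progenitor-like class summed to 1736 and 1766 CPM after IACS-70654 against 2190 and 2192 with vehicle, the 8 neutrophil GMP markers to 19588 and 19500 CPM against 17251 and 17323, and the 8 HSC markers to 188 and 173 CPM against 133 and 117, with none at 0. Cells in G1 were 39.5% and 39.3% against 24.3% and 25.8%, cells in S phase 35.3% and 28.5% against 46.0% and 43.8%, and the median UMI count per cell 10165 and 10019 against 12415 and 12014.5. The part of these shifts was not tested. In erythroid-like cells, the class with the highest share, Npm1 (0.01), Ncl (-0.01), Fbl (0.04), Nop56 (-0.01), Nop58 (0.03), Dkc1 (-0.02) and Nolc1 (-0.02) all stayed within 0.05 of zero on the log2 scale. Noc4l was the erythroid-like member with the largest estimate (-0.32, adjusted p = 0.0061). Rrs1 had log2 changes of -0.18 in monocyte progenitor-like and -0.10 in erythroid-like cells, and Polr1b of -0.12 and -0.25. No pathway gene was called in either class, and Myc had log2 changes of 0.03 and -0.19.

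**Figure D2:**
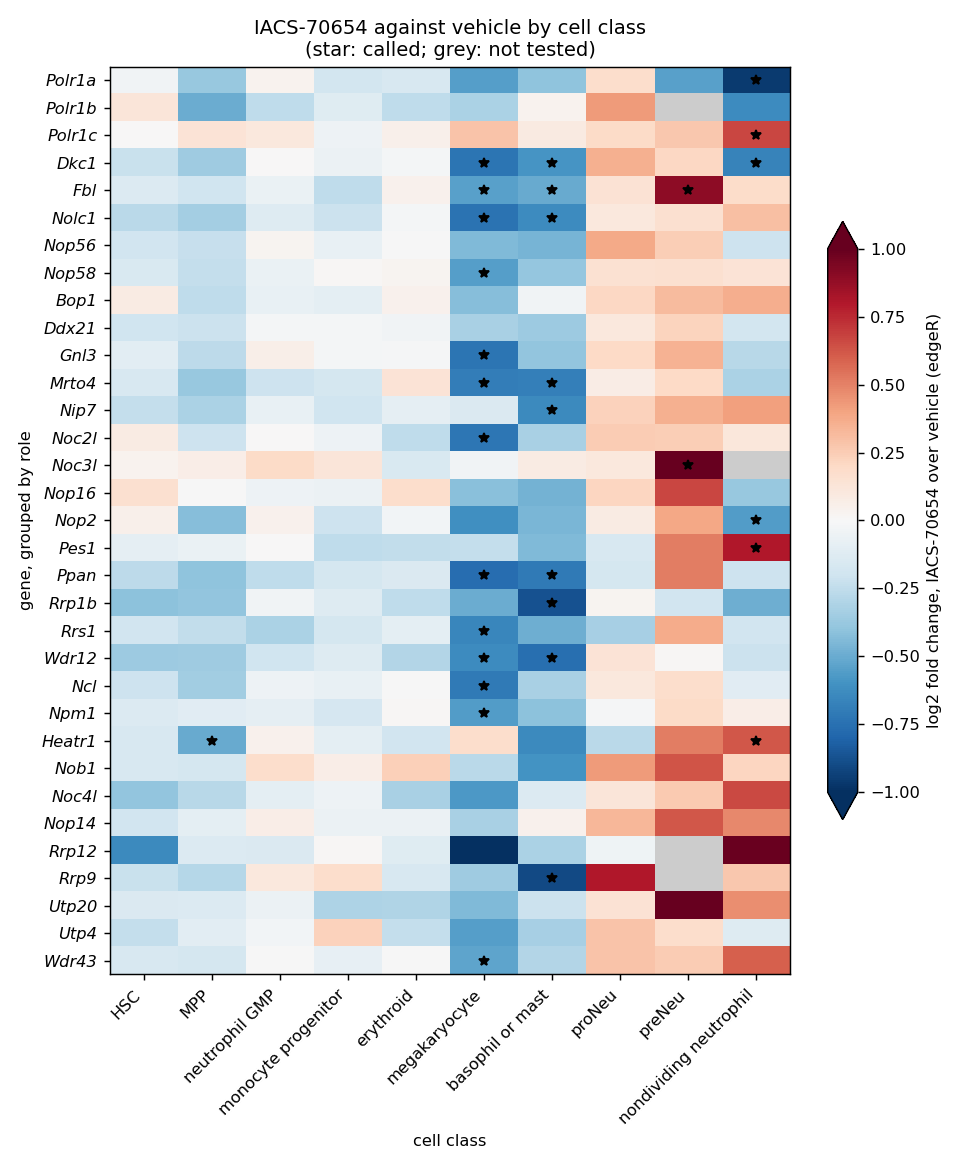
Log2 fold change of each of the 33 genes (rows, grouped by role) after IACS-70654 relative to vehicle in 10 marrow cell classes (columns), with called genes starred and untested genes grey. Megakaryocyte-like and basophil-or-mast-like cells hold 13 and 9 starred lower values, while the preNeu-like column is mostly positive.

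The clearest fall of the 33 genes was in megakaryocyte-like cells, the progenitors of platelets. Here 13 members were called lower and none higher, beside 5.47% of all 9703 genes called in either direction, and the median log2 change of the members was -0.55 beside 0.01 over all genes. Both Ncl and Npm1, 4 of 5 snoRNP genes, 6 of 14 large-subunit genes and 1 of 9 small-subunit genes were called, and none of the 3 polymerase subunits, whose median was -0.32. The groups were not tested against each other. DESeq2 called 7 of the 33, beside 1.71% of all genes, and 24 had an unadjusted p under 0.05 beside 26.9% of all genes. The count was 7 with classes from per-cell marker scores, beside 4.65% of all genes, and 8 without TMM scaling, beside 5.71%.

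Ncl was at 1423 and 1589 CPM in megakaryocyte-like cells with vehicle and at 918 and 907 CPM with IACS-70654, and WT lay at 1582 and 1692 CPM. The fall was 0.71 on the log2 scale, as log2 change -0.71 (SE 0.05, adjusted p = 5.03e-23). Npm1 was at 2653 and 2682 CPM with vehicle and at 1809 and 1817 CPM with IACS-70654 (log2 change -0.56, SE 0.04, adjusted p = 2.95e-22). The libraries of the 2 groups lay far apart for both genes. Ppan, a factor of large-subunit assembly, was at 66.5 and 73.9 CPM with vehicle and at 43.1 and 36.2 CPM with IACS-70654 (log2 change -0.77, SE 0.17, adjusted p = 0.000537). Nolc1 was at 161 and 162 CPM with vehicle and at 105 and 85.3 CPM with IACS-70654 (log2 change -0.74). Dkc1 was at 209 and 223 CPM with vehicle and at 131 and 125 CPM with IACS-70654 (log2 change -0.73). The WT values of Nolc1 (177 and 221 CPM) and Dkc1 (217 and 201 CPM) were on the side of vehicle.

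Fbl was at 310 and 265 CPM in megakaryocyte-like cells with vehicle and at 209 and 191 CPM with IACS-70654 (log2 change -0.55), and Nop58 at 309 and 351 CPM and then 215 and 227 CPM (-0.55). Nop56, the snoRNP gene that was not called, was at 233 and 238 CPM with vehicle and at 175 and 168 CPM with IACS-70654 (log2 change -0.44, adjusted p = 0.000362). Rrs1 was called lower in this class alone among the 15: it was at 61.4 and 55.5 CPM with vehicle and at 35.3 and 42.2 CPM with IACS-70654 (log2 change -0.65, SE 0.18, adjusted p = 0.007). The remaining called genes were Gnl3 (nucleostemin, -0.73), Noc2l (-0.73), Mrto4 (-0.69), Wdr12 (-0.63) and Wdr43 (-0.53), whose IACS-70654 libraries all lay below their vehicle libraries. So did those of 24.5% of 12645 genes in the class. Rrp12 had the largest estimate of the class (-1.10, adjusted p = 0.0132) and was not called. Polr1b was at 18.5 CPM in both vehicle libraries and at 10.5 and 21.5 CPM with IACS-70654, so that its groups overlapped, and Polr1c and Heatr1 had positive estimates (0.28 and 0.18). Of the 124 pathway genes 12 were called lower and none higher, led by the box H/ACA protein Nhp2 (-0.84), Nifk (-0.80) and the U3 processome protein Imp4 (-0.79). Of all genes in the class, 3.23% were called lower. Myc was called lower as well (-0.77, SE 0.19, adjusted p = 0.00132), and Mycn had a log2 change of -0.58 (adjusted p = 0.079).

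The megakaryocyte-like cells also differed between groups in cycle phase and RNA content. With IACS-70654, 50.4% and 45.6% of them were scored in G1, against 25.2% and 27.3% with vehicle, and their median UMI counts per cell were 5670 and 5759 against 9133 and 9943. The 8 HSC markers summed to 1382 and 1344 CPM with IACS-70654 and to 1043 in both vehicle libraries, and none of them was at 0. Within each phase the summed share of the 33 genes was lower after IACS-70654, at 0.490% and 0.485% against 0.682% and 0.649% in G1, 0.567% and 0.591% against 0.762% and 0.801% in S, and 0.451% and 0.435% against 0.647% and 0.679% in G2M. In G1 cells alone, with fewer UMIs, 3 members were called lower, and the share of all genes there is given with the processing settings. Fewer members were also called without vehicle library 1 and without IACS-70654 library 1, fits that leave 1 library in a group.

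**Figure D3:**
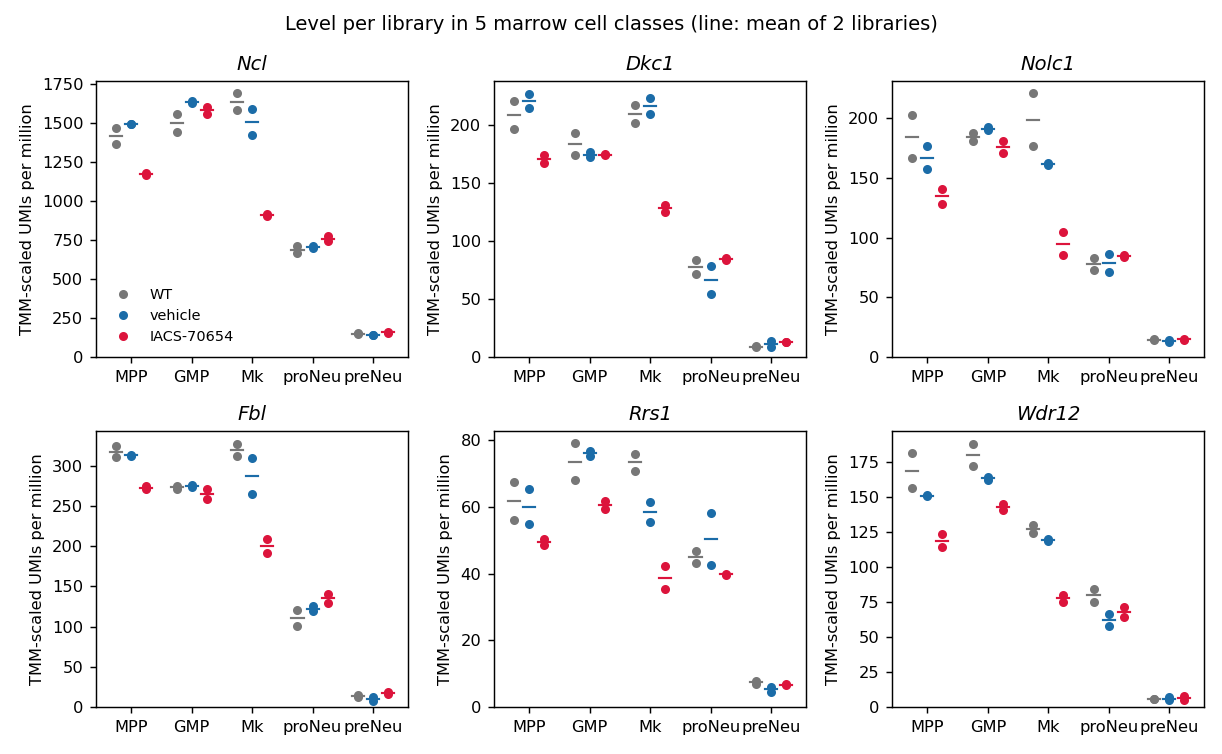
Level in TMM-scaled CPM of Ncl, Dkc1, Nolc1, Fbl, Rrs1 and Wdr12 in MPP-like, neutrophil GMP-like (GMP), megakaryocyte-like (Mk), proNeu-like and preNeu-like cells, 1 point per library and a line at the mean of 2. In megakaryocyte-like cells the IACS-70654 points of all 6 genes lie below vehicle and WT, and in preNeu-like cells all groups lie near the bottom of each scale.

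In basophil-or-mast-like progenitors 9 members were called lower and none higher, beside 8.94% of all genes, with a median log2 change of -0.41, and 21 had an unadjusted p under 0.05 beside 29.6% of all genes. Rrp9, which binds the U3 snoRNA, was at 27.6 and 40.3 CPM with vehicle and at 13.6 and 22.9 CPM with IACS-70654 (log2 change -0.91, SE 0.26, adjusted p = 0.00596). Rrp1b was at 36.9 and 45.1 CPM with vehicle and at 21.6 and 21.4 CPM with IACS-70654 (log2 change -0.87). Wdr12 was at 133 and 129 CPM with vehicle and at 73.5 and 85.5 CPM with IACS-70654 (log2 change -0.76). In these 3 genes the groups did not overlap, and 27.2% of 13167 genes of the class lay wholly below vehicle as well. Ppan (-0.70), Mrto4 (-0.68), Nip7 (-0.64), Nolc1 (-0.63), Dkc1 (-0.59) and Fbl (-0.51) were the other calls. Npm1 (2230 and 2079 CPM, then 1598 and 1661 CPM) and Ncl (912 and 883, then 714 and 722 CPM) were lower by less than the fold threshold, at -0.41 and -0.33. Nop56 had a log2 change of -0.47, Nop58 of -0.39, Rrs1 of -0.49 (adjusted p = 0.0939) and Polr1b of 0.03. Of the 124 pathway genes 5 were called lower, led by Gar1 (-0.83), Mdn1 (-0.81) and Nop10 (-0.72), where Gar1 and Nop10 are partners of Dkc1. Of all genes in the class, 4.92% were called lower, so the pathway count was near that share. Myc had a log2 change of -0.53 (adjusted p = 0.025).

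The make-up of the basophil-or-mast-like class moved with treatment. A cluster of cells with few UMIs formed 70.1% and 71.4% of the class with IACS-70654 and 24.6% and 28.7% with vehicle, the 7 markers of the class summed to 7259 and 6705 CPM against 10214 and 11223, and the 8 HSC markers to 812 and 867 CPM against 476 and 401. The 8 neutrophil GMP markers summed to 3022 and 2813 CPM against 5350 and 5548, none at 0, cells in S phase were 6.18% and 6.06% against 19.8% and 18.1%, and the median UMI count per cell was 3806 and 3556 against 5945 and 5547.5. The part of these shifts was not tested. With classes from per-cell marker scores no member was called by edgeR beside 7.33% of all genes, and without TMM scaling 3 were, beside 9.49%. The summed share was lower after IACS-70654 within both clusters, at 0.355% and 0.375% against 0.433% and 0.399% in the cluster of few UMIs and 0.457% and 0.461% against 0.524% and 0.506% in the other, and in G1 cells alone (0.370% and 0.381% against 0.469% and 0.453%), while the groups overlapped in S and in G2M cells. Without the cluster of few UMIs 1 member was called beside 2.23% of all genes (median estimate -0.36), and DESeq2 called 1 beside 3.31%. Fewer members were also called without either IACS-70654 library or without vehicle library 1, fits that leave 1 library in a group.

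In proNeu-like cells, the first neutrophil precursors, 27 of 33 estimates were above zero after IACS-70654, but none was called beside 5.34% of all genes. DESeq2 called none, 6 had an unadjusted p under 0.05 (beside 27.3% of all genes), and the median log2 change was 0.15. Nop56 was at 86.7 and 82.4 CPM with vehicle and at 106 and 113 CPM with IACS-70654 (log2 change 0.38, SE 0.09, adjusted p = 0.00514), while WT was at 104 and 109 CPM. Dkc1 was at 78.5 and 54.0 CPM with vehicle and at 83.3 and 85.0 CPM with IACS-70654 (log2 change 0.36, adjusted p = 0.0364). The vehicle libraries of Nop56 lay below those of both other groups. Rrs1 went the other way, at 58.3 and 42.6 CPM with vehicle and at 39.6 and 40.0 CPM with IACS-70654 (log2 change -0.33, SE 0.13, adjusted p = 0.0884), and did not pass the test. Npm1 (1564 and 1425 CPM, then 1493 and 1468 CPM) overlapped between the groups, and Ncl was at 714 and 698 CPM and then 774 and 746 CPM (log2 change 0.11). Fbl, Nop58 and Nolc1 had log2 changes of 0.14, 0.15 and 0.11, and Polr1b of 0.43 from 6.20 and 5.68 CPM to 6.48 and 9.20 CPM. Of the pathway genes 2 were called, both lower, Nop10 (-0.52) and Mphosph10 (-0.50), and Myc had a log2 change of 0.20.

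The proNeu-like cells differed between groups in stage markers, phase and depth as well. The 9 preNeu markers summed to 7370 and 7439 CPM in them with IACS-70654 and to 15212 and 13744 with vehicle, the 8 immature neutrophil markers to 7204 and 7213 CPM against 14873 and 13408, and the 8 proNeu markers to 38570 and 39072 CPM against 33726 and 34099, with no marker of these lists at 0. Cells in S phase were 55.9% and 57.0% with IACS-70654 against 69.0% and 69.6% with vehicle, and the median UMI count per cell was 17719 and 17527 against 13031 and 12449.5. The summed share of the 33 genes overlapped between the groups in the larger cluster of the class, led by Mpo, Ctsg and Elane (0.401% and 0.404% against 0.397% and 0.404%), and was higher after IACS-70654 in the other, led by Elane, Prtn3 and Ms4a3 (0.330% and 0.336% against 0.236% and 0.250%). It overlapped in G2M cells (0.301% and 0.294% against 0.304% and 0.283%) and was higher in S-phase cells (0.416% and 0.424% against 0.356% and 0.357%). The part of these shifts in the proNeu-like values was not tested.

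In preNeu-like cells, the last dividing neutrophil precursors, 28 of the 30 members tested had positive estimates after IACS-70654 (median 0.26), and 2 were called higher beside 9.96% of all genes called. At an unadjusted p under 0.05 there were 10 of the 30, beside 37.2% of all genes. Polr1b, Rrp9 and Rrp12 had too few UMIs to be tested. Fbl, the box C/D methyltransferase, was at 11.7 and 7.39 CPM with vehicle and at 16.1 and 18.3 CPM with IACS-70654, from 83, 67, 86 and 128 UMIs in that order. It rose by 0.89 on the log2 scale (SE 0.17, adjusted p = 6.5e-05), and WT lay between, at 14.6 and 12.1 CPM. Noc3l, a factor of early large-subunit assembly, had 3 and 2 UMIs in the vehicle libraries and 13 and 14 with IACS-70654, with 10 and 2 in WT. Its fitted log2 change of 2.75 (SE 0.63, adjusted p = 0.00066) rests on so few molecules that its size is uncertain.

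The abundant members of preNeu-like cells moved little. Npm1 was at 162 and 164 CPM with vehicle and at 185 and 186 CPM with IACS-70654 (log2 change 0.19, adjusted p = 0.00749), and Ncl at 141 CPM in both vehicle libraries and at 164 and 155 CPM with IACS-70654 (0.17, adjusted p = 0.0155). For both genes the groups did not overlap, and 28.9% of 13596 genes of the class lay wholly above vehicle as well. Nop56 (17.5 and 18.1 CPM, then 20.8 and 21.5 CPM), Nop58 (18.4 and 16.6, then 18.3 and 20.3 CPM), Dkc1 (14.3 and 8.93, then 13.3 and 12.9 CPM) and Nolc1 (14.4 and 12.9, then 14.6 and 15.6 CPM) had log2 changes between 0.16 and 0.25 and did not pass the test. Rrs1 was at 6.07 and 4.41 CPM with vehicle and at 6.73 and 6.59 CPM with IACS-70654 (log2 change 0.37, SE 0.23, adjusted p = 0.257). Its direction was opposite to that in proNeu-like cells, and neither passed the test. Utp20 (1.17, adjusted p = 0.012) and Heatr1 (0.51) were positive and not called, and Polr1a (-0.55) and Rrp1b (-0.19) were the negative estimates. Of the 118 pathway genes tested 7 were called higher, led by Urb2 (1.54), Mybbp1a (1.09) and Nol8 (1.09), and 2 lower, Mphosph10 (-0.64) and Nol10 (-0.62). Of all genes in the class, 5.41% were called higher and 4.55% lower. Myc had a log2 change of 1.01 (SE 0.39, adjusted p = 0.05).

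The preNeu-like cells after IACS-70654 also carried more RNA of the earlier stage. The 8 proNeu markers summed to 5295 and 5292 CPM against 2641 and 2228 with vehicle, and the 9 preNeu markers to 67812 and 65518 CPM against 86184 and 88153, with no marker of either list at 0. The summed share of the 33 genes was higher after IACS-70654 in each of the 3 clusters of the class, at 0.0639% and 0.0605% against 0.0519% and 0.0503% in one, 0.0786% and 0.0840% against 0.0479% and 0.0480% in another and 0.0450% and 0.0443% against 0.0368% and 0.0358% in the third. The part of this stage shift in the change was not tested. The 2 precursor classes also moved in number: proNeu-like cells numbered 144 and 158 in the vehicle libraries and 389 and 497 in the IACS-70654 libraries, preNeu-like cells 589 and 747 and then 350 and 454, and with both classes summed as 1, which mixes those numbers into the sums, 31 members were called higher beside 24.7% of all genes called in either direction. No member was called by DESeq2 or in the largest cluster alone, and without TMM scaling 7 were, beside 17.1% of all genes. The calls in preNeu-like cells did not hold without vehicle library 2 or without IACS-70654 library 2, fits that leave 1 library in a group.

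In nondividing neutrophil-like cells, which hold immature and mature neutrophils together, the members called were split in direction. The groups lay in largely different clusters: of the 9 clusters of the class, IACS-70654 cells made up 92.5% to 95.6% of 3 and 2.5% to 5.9% of 4 others, and the 8 mature neutrophil markers summed to 22039 and 21627 CPM after IACS-70654 against 25025 and 24941 with vehicle, none at 0. Treatment and cluster cannot be told apart in these neutrophil values. Npm1, Ncl and Polr1a were counted in 424 to 1627 UMIs in each vehicle and IACS-70654 library, but 23 and 22 of the 33 genes had under 100 UMIs in the vehicle libraries and 21 and 18 with IACS-70654. Of the 32 members tested (Noc3l was not), 3 were called higher and 3 lower, beside 21.4% of all genes. Polr1a, the largest subunit of RNA polymerase I, was at 38.6 and 39.8 CPM with vehicle and at 20.8 and 19.7 CPM with IACS-70654, a log2 change of -0.96 (SE 0.06, adjusted p = 3.09e-20). WT lay above both, at 50.2 and 51.9 CPM, so the 3 groups were ordered without overlap. Dkc1 was at 8.05 and 7.23 CPM with vehicle and at 4.87 and 4.71 CPM with IACS-70654 (log2 change -0.67), and Nop2, an RNA methyltransferase, at 3.82 and 4.30 CPM and then 2.70 and 2.82 CPM (-0.56). Pes1 was at 2.63 and 2.30 CPM with vehicle and at 4.23 and 4.32 CPM with IACS-70654 (log2 change 0.80). Polr1c was at 2.57 and 2.25 CPM and then 3.69 and 3.90 CPM (0.67), and Heatr1 at 7.58 and 5.03 CPM and then 10.8 and 8.52 CPM (0.62). None of these 6 genes overlapped between vehicle and IACS-70654. Of 15918 genes counted in the class, 34.6% lay wholly below vehicle and 34.1% wholly above, so such separation was common. At an unadjusted p under 0.05 there were 13 of the 32 members, beside 58.7% of all genes. DESeq2 called 2 of the 33, beside 13.8% of all genes, and fewer members were called without vehicle library 2, a fit that leaves 1 library in a group.

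Npm1 (59.7 and 60.1 CPM, then 63.0 and 62.8 CPM) and Ncl (54.5 and 49.5, then 45.9 and 49.8 CPM) had log2 changes of 0.07 and -0.11 in nondividing neutrophil-like cells. Fbl (0.19), Nolc1 (0.30), Nop58 (0.14), Nop56 (-0.20), Rrs1 (-0.19) and Polr1b (-0.63) did not pass the test. Of the 120 pathway genes tested 16 were called higher, led by the helicases Ddx10 (1.15) and Ddx55 (1.05) and by Rbm28 (0.82), and 3 lower, Mphosph10 (-0.63), Riok2 (-0.57) and Ubtf (-0.53). Of all genes in the class, 12.1% were called higher and 9.26% lower. Myc had a log2 change of 0.57 (adjusted p = 0.105). Without TMM scaling the median of all genes was 0.25 in this class and 0.24 in preNeu-like cells on the log2 scale, so changes there are read relative to that shift.

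In the other classes of the CD45+ sort no member was called by edgeR or by DESeq2. The shares of all genes called were 5.82% in monocyte-like, 4.08% in pDC-like, 8.75% in B cell-like, 0.475% in T or NK cell-like and 1.71% in basophil-like cells. At an unadjusted p under 0.05 there were 4 of 33 members in monocyte-like cells beside 29% of all genes, 2 of 31 in pDC-like cells beside 19.7%, 2 of 30 in B cell-like cells beside 27.5%, 0 of 10 in T or NK cell-like cells beside 11.7% and 1 of 30 in basophil-like cells beside 15.8%, so in each class the members' share was below that of all genes. In monocyte-like cells Npm1 was at 1050 and 1153 CPM with vehicle and at 1273 and 1309 CPM with IACS-70654 (log2 change 0.23, adjusted p = 7.5e-05). Ncl was at 299 and 338 CPM and then 364 and 376 CPM (0.21). In both genes the IACS-70654 libraries lay above the vehicle libraries by less than the fold threshold. Of 14450 genes counted in the class, 27.1% lay wholly above vehicle. The 8 proNeu markers in these monocyte-like cells summed to 7336 and 7799 CPM against 4673 and 4920 with vehicle, the 8 monocyte markers to 4939 and 4733 CPM against 6156 and 6319 and the 6 dendritic cell markers to 60.4 and 50 CPM against 461 and 231, none at 0, and the part of these shifts was not tested. In B cell-like cells Npm1 (1043 and 960, then 755 and 921 CPM) and Ncl (468 and 428, then 366 and 371 CPM) had log2 changes of -0.25 and -0.28 with adjusted p-values of 0.298 and 0.211. In B cell-like cells 2 pathway genes were called lower, Ddx54 (-1.16) and Snu13 (-0.99), and none was called in the other 4 classes. The B cell-like libraries held different clusters: one led by Cd74, H2-Aa and H2-Eb1 made up 67.3% and 75.7% of the class with IACS-70654 and 4.94% and 6.59% with vehicle, and one led by Cecr2, Bach2 and Myl4 made up 13.5% and 8.41% against 54.3% and 57.7%, so that treatment and cluster cannot be told apart in the values of this class. Myc had log2 changes of 1.96 in B cell-like (adjusted p = 0.0107), 0.63 in monocyte-like and -1.01 in basophil-like cells.

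The response of the 33 genes was then compared between progenitors and neutrophil precursors by a test of the difference itself, as the precursor's log2 change minus the progenitor's. The classes come from different sorts and therefore from different libraries. Between MPP-like and preNeu-like cells 7 members differed, all in the direction of the precursor, beside 6.9% of all 12466 genes. The count was 4 with the replicate block, beside 6.13% of all genes, and 18 without TMM scaling, beside 12%. Fbl differed by 1.09 (SE 0.17, adjusted p = 5.87e-07), with estimates of -0.20 in MPP-like and 0.88 in preNeu-like cells. Ncl differed by 0.51 (SE 0.06, adjusted p = 2.04e-09), from -0.35 to 0.16. Heatr1 differed by 1.01, Nip7 by 0.66, Mrto4 by 0.57, Utp20 by 1.30 and Noc3l by 2.68, the last from few UMIs. The members' median difference was 0.56 beside 0.01 over all genes.

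Between MPP-like and proNeu-like cells 2 members differed, Dkc1 (0.72, SE 0.13, adjusted p = 2.31e-05) and Nop56 (0.62, SE 0.11, adjusted p = 3.55e-05), beside 3.19% of all genes. Both had negative estimates in MPP-like and positive ones in proNeu-like cells. Between neutrophil GMP-like and preNeu-like cells Fbl (0.96), Utp20 (1.24) and Noc3l (2.59) differed, beside 7.45% of all genes, so the members' share was near that of all genes. Between neutrophil GMP-like and proNeu-like cells no member did, beside 1.19% of all genes. Rrs1 did not pass any of these tests: its differences were 0.60 (adjusted p = 0.09) from MPP-like to preNeu-like, 0.69 (adjusted p = 0.0232) from GMP-like to preNeu-like, -0.08 (adjusted p = 0.841) from MPP-like to proNeu-like and 0.00 (adjusted p = 0.999) from GMP-like to proNeu-like cells. Myc differed by 1.43 between MPP-like and preNeu-like and by 0.64 between MPP-like and proNeu-like cells, both called. Leaving out a library leaves 1 in a group, so median differences of the members are given for those fits. Without CD45+ vehicle library 2 the median was 0.44 for MPP-like and preNeu-like and 0.26 for GMP-like and preNeu-like cells. The calls of the latter pair did not hold there. For MPP-like and preNeu-like cells it was 0.58 without CD45+ IACS-70654 library 1 and 0.52 without c-Kit+ vehicle library 1. Fewer members of that pair were called in each of these fits. For MPP-like and proNeu-like cells the median lay between 0.39 and 0.47 with single libraries left out, and the calls changed in number. For GMP-like and proNeu-like cells it lay between 0.20 and 0.26.

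**Figure D4:**
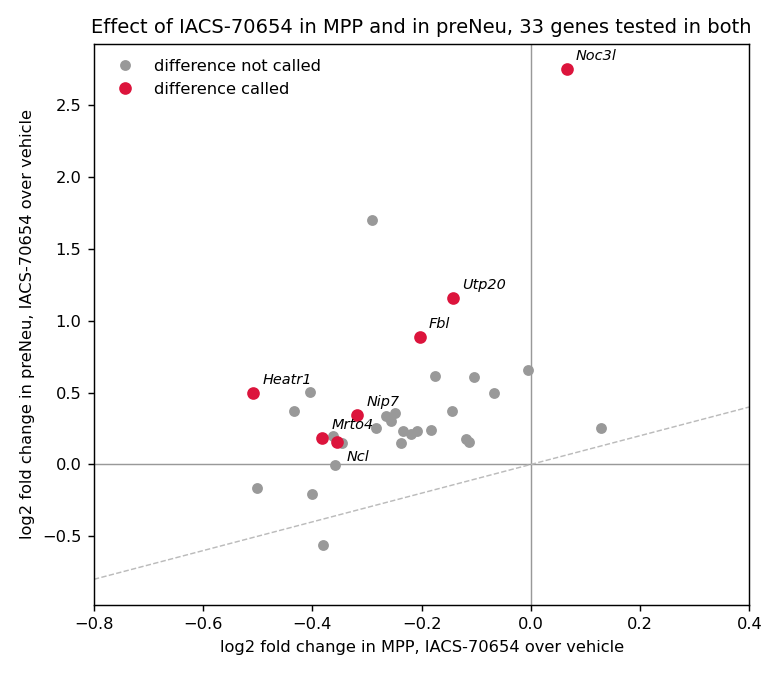
Log2 fold change after IACS-70654 in MPP-like cells (horizontal axis) and in preNeu-like cells (vertical axis), 1 point per gene, with the 7 genes whose difference was called in red and a dashed line at equal change. Nearly all points lie above the line, most of them left of 0 and above 0.

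Between vehicle and WT, which differ in the tumor, its transplantation and the dosing with vehicle together, few of these genes differed in the marrow. With TMM scaling the only member called in any class was Dkc1 in nondividing neutrophil-like cells, beside 9.01% of all genes: it was at 4.42 and 4.31 CPM in WT and at 8.05 and 7.23 CPM with vehicle, and it rose by 0.80 on the log2 scale (SE 0.17, adjusted p = 0.000181). The IACS-70654 libraries lay at 4.87 and 4.71 CPM, near WT. Vehicle and WT cells of this class also differed in cluster. The cluster led by Cd101, Clec4d and Wfdc17 held 89.4% vehicle and 8.0% WT cells, and the part of cluster in the rise of Dkc1 was not tested. The count of members called in this class was higher without vehicle library 1 or without either WT library, fits that leave 1 library in a group. At an unadjusted p under 0.05 there were 13 of 32 members, beside 38.9% of all genes. DESeq2 called no member in this or any other class for this comparison, while without TMM scaling 4 members were called in this class beside 12.1% of all genes and 2 in preNeu-like cells beside 5.33%. In the same class Polr1a (-0.38, adjusted p = 2e-06) and Ncl (-0.21) were under the fold threshold. In neutrophil GMP-like cells Npm1 (3164 and 3313 CPM in WT, 3579 and 3434 with vehicle, log2 change 0.12) and Ncl (1440 and 1557, then 1642 and 1625 CPM, 0.13) were higher with vehicle by less than the fold threshold, where no member was called beside 1.29% of all genes and 6 had an unadjusted p under 0.05 beside 19.9%.

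In the remaining classes, where no member was called, the share of all genes called was 1.42% in proNeu-like, 3.39% in preNeu-like, 0.99% in monocyte-like, 0.0326% in pDC-like, 0.759% in B cell-like, 0.949% in T or NK cell-like, 0.0134% in basophil-like, 0.622% in HSC-like, 0.74% in MPP-like, 1.22% in monocyte progenitor-like, 0.61% in erythroid-like, 0.371% in megakaryocyte-like and 1.32% in basophil-or-mast-like cells. The count of members at an unadjusted p under 0.05 was 5 in proNeu-like cells (beside 16.6% of all genes at that threshold), 9 of 30 in preNeu-like (26.4%), 0 in monocyte-like (15.3%), 2 in pDC-like (7.06%), 0 in B cell-like (10.3%), 2 of 10 in T or NK cell-like (13.9%) and 2 in basophil-like cells (7.97%). It was 0 in HSC-like (11.2%), 2 in MPP-like (13.1%), 5 in monocyte progenitor-like (20.2%), 4 in erythroid-like (15.1%), 9 in megakaryocyte-like (10.1%) and 1 in basophil-or-mast-like cells (13.5%). The members had medians of -0.23 in preNeu-like, -0.22 in nondividing neutrophil-like, -0.23 in B cell-like and -0.16 in megakaryocyte-like cells. Both vehicle libraries of the summed share lay below WT in each of these classes, and also in basophil-like, erythroid-like and proNeu-like cells. They lay above WT in MPP-like cells (0.765% and 0.766% against 0.746% and 0.708%), neutrophil GMP-like cells (0.791% and 0.782% against 0.720% and 0.753%) and monocyte progenitor-like cells (0.726% and 0.730% against 0.722% and 0.707%). The 2 comparisons share the vehicle libraries, so a value that was low or high with vehicle enters both. Of the pathway genes Wdr18 was called higher in preNeu-like (0.99) and nondividing neutrophil-like cells (1.51), Cd3eap (-0.89) and Gnl2 (-0.64) lower in preNeu-like and Efl1 (-0.67) lower in nondividing cells. Myc had log2 changes of -0.98 and -0.86 in those classes (adjusted p = 0.108 and 0.058), and between -0.77 and 0.24 in the others.

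Tumor cells were 2956 in all, with 400 in the vehicle library, 822 with IACS-70654, 501 with anti-PD-1 and 1233 with the combination. With 1 library per condition there is no test, and the 95% intervals of the ratios cover counting error only. The summed share of the 33 genes was 0.351% with vehicle, 0.321% with IACS-70654, 0.363% with anti-PD-1 and 0.312% with the combination. Without Npm1 and Ncl it was lowest with vehicle, at 0.125%, and stood at 0.134% with IACS-70654 and 0.132% with anti-PD-1 and with the combination. These libraries differ in which tumor cell clusters they hold. The cluster with the highest share among those with at least 20 cells in the vehicle library, led by Alkal2, Aqp5 and Tesc, was 12.5% of the vehicle and 14.8% of the anti-PD-1 tumor cells but 0.122% with IACS-70654 and 0.892% with the combination, and its share was 0.512% with vehicle. Within the 3 other clusters of that size the share was higher with IACS-70654 than with vehicle, at 0.353% against 0.321%, 0.317% against 0.306% and 0.281% against 0.260%, opposite to the direction over all tumor cells. With the combination the same clusters stood at 0.316%, 0.316% and 0.260%.

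The most abundant member was Npm1, which was at 1726 CPM (here without TMM scaling) with vehicle, 1372 with IACS-70654, 1768 with anti-PD-1 and 1285 with the combination. Its log2 ratios to vehicle were -0.33 (interval -0.37 to -0.30) with IACS-70654 and -0.43 (interval -0.46 to -0.39) with the combination. Within the 3 clusters Npm1 was at 1645 CPM with vehicle and 1474 with IACS-70654 in the first, 1385 and 1361 in the second and 1388 and 1236 in the third, and at 2446 CPM with vehicle in the cluster that was nearly absent with IACS-70654. With the combination Npm1 was at 1248, 1307 and 1186 CPM in the same 3 clusters, below vehicle in each. Both the cluster make-up and the level within clusters thus differed from vehicle, and the part of each was not tested. Ncl stayed between 503 and 534 CPM in all 4 libraries.

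A log2 ratio over 0.5 in size was reached by 3 members with IACS-70654 (26.6% of all genes), 1 with anti-PD-1 (13%) and 1 with the combination (27.6%), all of them higher, though in S-phase cells alone the 3 past that ratio with anti-PD-1 were all lower, beside 16.8% of all genes past it. With IACS-70654 these were Rrp12 at 0.76 (interval 0.21 to 1.35, from 116 UMIs against 35), Utp20 at 0.51 (interval 0.24 to 0.79) and Polr1b at 0.55, whose interval of -0.02 to 1.15 includes 0. Utp20 was at 23.3 CPM with vehicle, 33.2 with IACS-70654, 26.8 with anti-PD-1 and 35.2 with the combination, where its log2 ratio was 0.60 (interval 0.34 to 0.86). It was thus high in both libraries that received IACS-70654. With anti-PD-1 the gene was Polr1a, at 0.58 (interval 0.28 to 0.89). Under TMM factors the counts were 1 with IACS-70654 (24.9% of all genes), 1 with anti-PD-1 (12.9%) and 2 with the combination (26.6%). Without the upper limit on genes they were 1 (26.4%), 0 (12.3%) and 0 (26.4%) in that order. Rrs1 was at 31.4 CPM with vehicle, 36.6 with IACS-70654, 32.3 with anti-PD-1 and 42.7 with the combination (log2 ratio 0.44, interval 0.22 to 0.67). Nop56 was at 69.2, 85.0, 71.7 and 77.9 CPM in that order, Nop58 at 92.0, 102, 99.1 and 98.4 CPM, Fbl at 120, 125, 134 and 120 CPM, Dkc1 at 50.9, 45.0, 52.0 and 46.3 CPM, Nolc1 at 75.1, 80.1, 76.9 and 76.9 CPM and Polr1b at 5.46, 8.0, 6.96 and 6.19 CPM. The median log2 ratio of the members was 0.09, 0.05 and 0.10, beside 0.12, 0.04 and 0.11 for all genes, so as a group they lay where all genes lay. Myc was at 6.71 CPM with vehicle and 10.4 with IACS-70654 (log2 ratio 0.63, interval 0.12 to 1.16), and Mycn had no UMI in any of the 4 libraries.

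**Figure D5:**
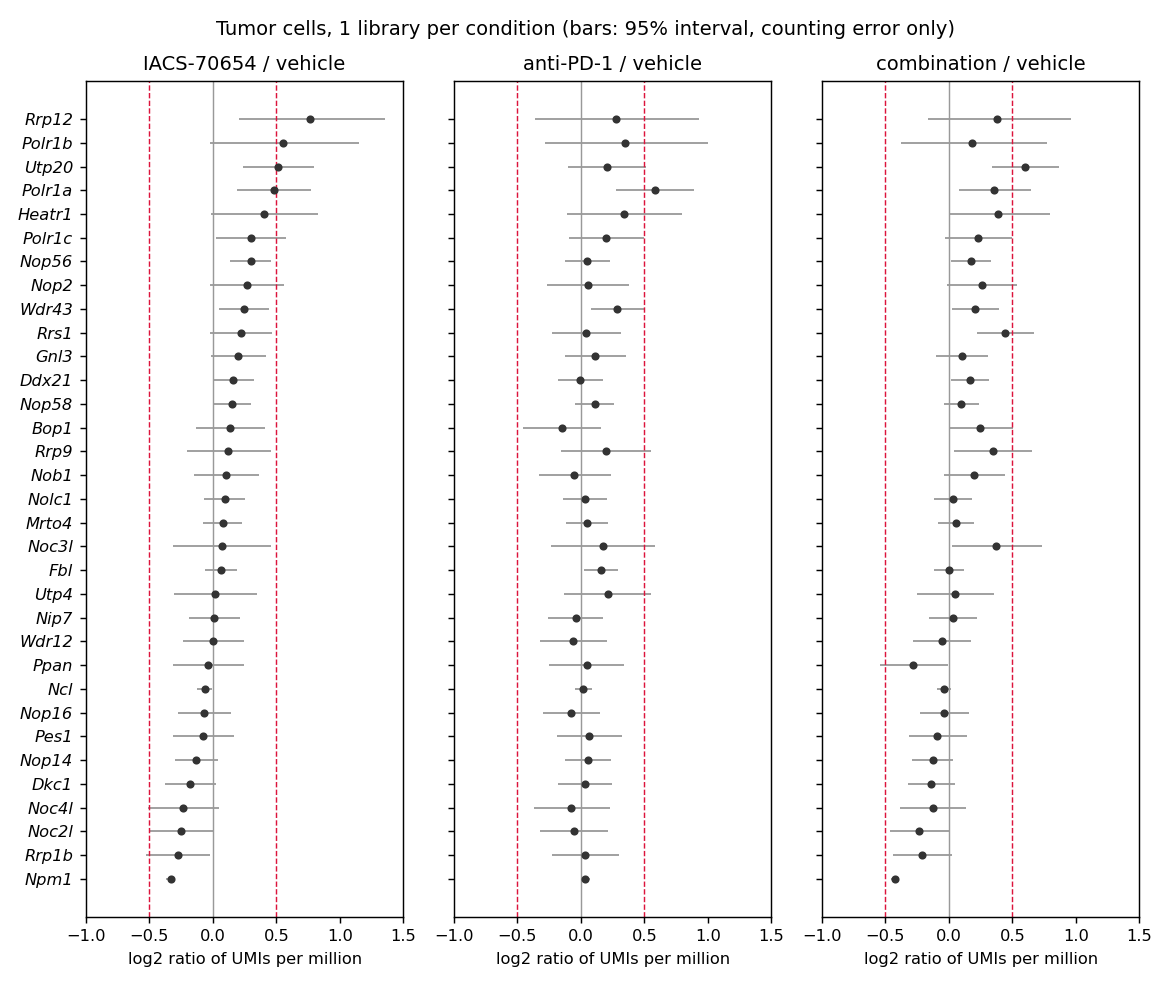
Log2 ratio of CPM in tumor cells to vehicle for each of the 33 genes, with IACS-70654, anti-PD-1 and the combination in 3 panels, bars for the 95% interval of counting error and dashed lines at 0.5 in size. Npm1 lies at the bottom of the first and last panels and near 0 with anti-PD-1, and most other bars include 0.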

How the data were processed

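Marrow (12 libraries) and tumor (4 libraries) suspensions of 3 pooled mice were tagged with CellPlex oligos and sequenced by 10x 3′ chemistry. The authors made the deposited UMI count matrices with Cell Ranger (matrix headers 7.1.0 for tumors and 7.2.0 for marrow) on mm10, and the labels also name Seurat. Reads that map equally well to several genes are not counted by default, so Npm1, which has processed copies in the genome, may be undercounted. Groups came from the sample titles. The members and gene lists were chosen with earlier results of these data known.

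Cells with 200 to 6000 genes and at most 10% mitochondrial UMIs were kept. Counts were scaled to 10000 per cell, and 2000 variable genes, 30 components, 20 neighbors and Leiden clustering at resolution 1 (0.8 within neutrophils) were used (scanpy 1.11.5, leidenalg 0.10.2, Python 3.11.15). Clusters were named from marker lists. The naming thresholds (score 0.45, lead over the next list 0.3, at least 4 markers detected) were set after the cluster tables were seen, and CD45+ clusters 11 and 12, c-Kit+ clusters 3, 12, 15, 19 and 23 and tumor-sample clusters 11 and 15 stayed unnamed. A smaller lead was accepted where more of a cluster's 10 leading genes were markers of its list than of the next, which named HSC-like cluster 0 (lead 0.13), B cell-like cluster 5 (0.16 over plasma cells) and preNeu-like cluster 23 (0.297), and between the merged neutrophil lists (cluster 14, 0.173), and tumor cluster 16 was kept as tumor cells at a score of 0.461. Immature and mature neutrophil clusters separated by group and were merged as nondividing neutrophil-like cells. Scrublet marked 0.327% of CD45+ (88 of 102 of them in WT library 1), 0.0568% of c-Kit+ and 0.145% of tumor-sample cells, too few to have worked, so doublets were not removed and remain in all classes. Phases were scored after thinning each cell to 3000 UMIs.

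UMI counts were summed per class and library, for classes with at least 20 cells in a library, and tested with edgeR 4.0.16 (filterByExpr, TMM, quasi-likelihood, R 4.3.3, limma 3.58.1) in a model of 3 groups of 2 libraries, where the study had tested cells with MAST. Differences of effects between classes were tested as interactions. The study's thresholds for calling a gene were kept (0.01 on the adjusted p and 0.5 on the size of the log2 change). The deposited tumor counts were compared as CPM ratios for genes with at least 20 UMIs, with exact binomial 95% intervals. Alternatives included DESeq2 1.42.0, other scalings, filters and phases, and leaving out each library. In simulated MPP-like sums of 11178 genes, 147 of 197 genes changed by 1 on the log2 scale were recovered (74.6%), with 2 false calls. The RefSeq promoters were searched by exact match. Named genes were the members, with per-library values for Npm1, Ncl, Fbl, Nop56, Nop58, Dkc1, Polr1b, Nolc1, Rrs1 and the largest called ones, Myc and Mycn, and up to 3 called pathway genes in each direction. Other members are given with their estimates in the sentence or plot where they stand out, as chosen after their values were seen. In MPP-like and preNeu-like cells, libraries of a group differed by more than sampling noise (chi-square per degree of freedom 1.23 to 1.55). None therefore repeats another's counts, but this does not show that they came from separate pools.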

Additional observations from a re-analysis of the deposited data

Results flagged for a closer look

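The IACS-70654 effect on 12 gene and class pairs differed between a progenitor and a neutrophil precursor by the interaction test, and these results are listed here as differences on the log2 scale, precursor minus progenitor. Between MPP-like and preNeu-like cells they were Ncl (0.51), Mrto4 (0.57), Fbl (1.09), Nip7 (0.66), Utp20 (1.30), Heatr1 (1.01) and Noc3l (2.68), with edgeR adjusted p-values from 2.04e-09 for Ncl to 0.00925 for Mrto4. Between MPP-like and proNeu-like cells they were Nop56 (0.62) and Dkc1 (0.72). Between neutrophil GMP-like and preNeu-like cells they were Fbl (0.96), Utp20 (1.24) and Noc3l (2.59). In the order listed, 6.9%, 3.19% and 7.45% of all genes tested were called, with 33 members tested in each comparison. In the last of these the members' share was near that of all genes. The calls between neutrophil GMP-like and preNeu-like cells did not hold without CD45+ vehicle library 2. Noc3l rests on 3 and 2 UMIs in the preNeu-like vehicle libraries. The progenitors and precursors were sorted and sequenced apart, so the sort and the cell class cannot be told apart. The markers that moved within MPP-like, proNeu-like and preNeu-like cells are given beside those classes, and their part in these differences was not tested.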

How the results depend on the processing

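Depth limits the precursors and mature cells: 24 to 28 of the 33 members in preNeu-like and 18 to 23 in nondividing neutrophil-like cells had under 100 UMIs in a vehicle or IACS-70654 library, though Npm1 and Ncl had many more, and with 2 libraries a group only members moving well beyond library spread can be called. The counts of members called held within a factor of 1.5 of the reported ones under the other alternatives, and the cause of the exceptions was not tested, apart from phase, cluster and library choices that leave fewer cells or libraries. A percentage in parentheses after a count is the share of all genes called under the same setting. With DESeq2 the IACS-70654 counts were 0 in preNeu-like (4.79%), 2 in nondividing neutrophil-like (13.8%), 0 in MPP-like (1.36%), 7 in megakaryocyte-like (1.71%) and 1 in basophil-or-mast-like cells (3.31%), and that of vehicle against WT in nondividing cells was 0 (6.02%). Without TMM scaling they were 7 in preNeu-like (17.1%), 8 in megakaryocyte-like (5.71%) and 3 in basophil-or-mast-like cells (9.49%), with 2 and 4 in preNeu-like and nondividing cells for vehicle against WT (5.33% and 12.1%), and 18 (12%), 4 (3.14%) and 6 (10.5%) for the differences MPP-like and preNeu-like, MPP-like and proNeu-like, and GMP-like and preNeu-like. At an adjusted p under 0.05 with no fold threshold the IACS-70654 counts were 2 in proNeu-like (14.8%), 6 in preNeu-like (27%), 10 in nondividing (54.4%), 3 in monocyte-like (18.2%), 7 in HSC-like (11.7%), 17 in MPP-like (19.1%), 6 in GMP-like (30.5%), 10 in monocyte progenitor-like (25.7%), 8 in erythroid-like (21.7%) and 15 in basophil-or-mast-like cells (18.9%). Vehicle against WT gave 6 in nondividing (30.7%), 3 in GMP-like (8.37%), 3 in monocyte progenitor-like (8.48%), 1 in erythroid-like (2.98%) and 1 in megakaryocyte-like cells (1.14%), and the 4 differences gave 14 (16%), 12 (8.25%), 9 (18.4%) and 1 (4.42%). Without the filter on low counts the counts were 2 for vehicle against WT in nondividing cells (5.14%) and 0 for IACS-70654 in MPP-like cells (2.69%), and with cells of at least 1000 UMIs the former was 2 (9.08%). With classes from per-cell marker scores the IACS-70654 counts were 2 in B cell-like (10.2%), 2 in MPP-like (5.26%), 7 in megakaryocyte-like (4.65%) and 0 in basophil-or-mast-like cells (7.33%). In S phase alone they were 2 in proNeu-like (4.24%), 1 in preNeu-like (5.57%) and 0 in MPP-like cells (1.31%), where Nop58 (0.10), Nop56 (0.051), Fbl (0.0223) and Heatr1 (0.0181) turned positive, and in G1 alone 3 in megakaryocyte-like (2.02%) and 3 in basophil-or-mast-like cells (5.46%). The G1 setting, GMP-like cells without a cluster led by S100a9, the exclusion of the low-UMI cluster (1 called, beside 2.23% of all genes) and the largest preNeu-like cluster alone (0 called, beside 6.95%) were chosen after seeing the data. With proNeu-like and preNeu-like cells summed as 1 class, 1 member was called for vehicle against WT (3.86%) and 31 for IACS-70654 (24.7%). In tumor cells the members past the fold were 1 with IACS-70654 (24.9%) and 2 with the combination (26.6%) under TMM factors, 1 of the 2 lower, 1 (26.4%), 0 (12.3%) and 0 (26.4%) with IACS-70654, anti-PD-1 and the combination without the upper limit on genes, and 3 with anti-PD-1 (16.8%), all lower, and 3 with the combination (28.9%), all higher, in S phase. The log2 ratio of the summed share, IACS-70654 over vehicle, without Npm1 and Ncl was -0.25 in MPP-like, -0.0778 in monocyte progenitor-like, -0.029 in erythroid-like, -0.44 in megakaryocyte-like, 0.19 in proNeu-like, 0.49 in preNeu-like, 0.0443 in nondividing and 0.14 in B cell-like cells, the last 1 of opposite sign to the ratio with them, as was the difference in tumor cells. Without the upper limit on genes it was 0.0283 in proNeu-like and -0.36 in basophil-like cells.

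Leaving out each library in turn leaves 1 library in a group, so calls of those fits are not counted. For IACS-70654 the calls changed in number in proNeu-like, preNeu-like, nondividing, MPP-like, megakaryocyte-like and basophil-or-mast-like cells. In preNeu-like and MPP-like cells all calls were lost in some of these fits. For vehicle against WT the calls changed in number in preNeu-like and nondividing cells. The members' median difference lay between 0.438 and 0.58 for MPP-like and preNeu-like cells. It lay between 0.256 and 0.400 for GMP-like and preNeu-like cells. The replicate numbers did not pair the libraries: the correlations of same-numbered deviations lay between -0.092 and 0.078, and a fit with the replicate block called 4 members for MPP-like and preNeu-like cells and changed no other count by over 1.5 times. Of the values of single named genes under the alternatives, 644 kept their direction and side of the threshold, 167 were no longer called, 15 became called and 4 reversed. Doublet removal was not run as an alternative, because the caller had not worked.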
